A study of Rattus norvegicus with 6 samples.

Results

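The 10 genes described here carry cystine into the cell, build and recycle glutathione, and make enzymes switched on by the transcription factor NRF2. They are Slc7a11, Gclc, Gclm, Gss, Gsr, Nqo1, Hmox1, Txnrd1, Srxn1 and Nfe2l2, and they were taken by symbol from the 15679 rows of the deposited tables. All 10 had rows, and all 10 were among the 12102 genes with enough reads to be tested. They had been chosen because Slc7a11 stood higher in the HIP libraries while Gclc and Nqo1 stood lower, so the difference between the groups is given for these 10 genes as a description, without a test.

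The series compared pancreatic duct glands, small mucous glands that bud from the larger ducts, between 3 wild-type (WT) and 3 HIP libraries. Both groups were Sprague-Dawley rats, and the HIP rats were transgenic for human islet amyloid polypeptide, a transgene driven in beta cells, and were described as pre-diabetic. The labels name no age and no other allele or treatment. Glands were recognised by their shape, cut out by laser and sequenced as total RNA, and nothing in the labels ties a library to an animal of its own. The spread between libraries may therefore be technical. Libraries are called by their group and the number in their title, and values are listed in the order WT26, WT1, WT4 for WT and HIP30, HIP2, HIP3 for HIP.

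Cystine is the oxidised form of the amino acid cysteine, and it enters cells through an antiporter built from a light chain, SLC7A11, and a heavy chain, SLC3A2, in exchange for glutamate. Cysteine limits the making of glutathione, the main small thiol that cells use against peroxides and reactive chemicals. NRF2 is held back by KEAP1 and, when released, pairs with small MAF proteins at antioxidant response elements near genes of glutathione synthesis, thioredoxin recycling and quinone reduction. Slc7a11 is also a target of ATF4, the transcription factor of amino acid shortage and endoplasmic reticulum stress.

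Totals lay between 15141136 and 17574682 reads, and levels are given as CPM, read counts scaled to a common library total with TMM factors, which correct for differences in composition between libraries. The libraries carried gland epithelium, with 14 of 20 listed duct and gland markers measured at a summed 11195 to 27787 CPM in WT and 11257 to 13964 CPM in HIP. They also differed in other cells: 8 measured beta cell markers had no read in WT26 and HIP30 but summed to 11324 CPM in WT4 and to 5056 CPM in HIP3. The 12 proliferation markers stood at 1974 to 3127 CPM in WT, 2813 CPM in HIP3, 487 CPM in HIP2 and 98.7 CPM in HIP30. In bulk RNA of this kind, fewer cells of a type and less RNA per cell cannot be told apart. Over all 12102 genes limma called 0 higher and 0 lower in HIP at a Benjamini-Hochberg adjusted p of 0.05 (0% in each direction), and limma-voom, run with and without sample quality weights, likewise called 0. Genes with an unadjusted p under 0.05 numbered 792 by limma (6.54%), 914 by limma-voom and 2388 by limma-voom with quality weights.

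RefSeq promoter windows of the rat build GRCr8, from 250 bases before to 50 after the start site, were found for 8 of the 10 genes, while Gsr and Hmox1 had none in the table. They were searched on both strands for the antioxidant response element core TGACNNNGC and its form TGAGNNNGC, for the ATF4 element core TGATGNAA and for the AP-1 site TGANTCA, which can overlap the second form. Of 33469 windows, 12.1% held TGACNNNGC, 17.2% TGAGNNNGC, 3.98% TGATGNAA and 7.33% TGANTCA. Gclm, Txnrd1, Srxn1 and Nfe2l2 held a match to one of the antioxidant forms, where 27.1% of all windows did, and none of the 8 genes held the ATF4 core in its window. The windows printed are those of Slc7a11, Gclc and Nqo1, the genes whose levels led to this choice and whose windows hold no match to these antioxidant or ATF4 forms, and of Gclm, Txnrd1 and Srxn1, whose matches to an antioxidant form are in capitals. In Srxn1 the last match, TGAGTCAGC, overlaps an AP-1 site.
Slc7a11, chr2:136668215-136668514, minus strand: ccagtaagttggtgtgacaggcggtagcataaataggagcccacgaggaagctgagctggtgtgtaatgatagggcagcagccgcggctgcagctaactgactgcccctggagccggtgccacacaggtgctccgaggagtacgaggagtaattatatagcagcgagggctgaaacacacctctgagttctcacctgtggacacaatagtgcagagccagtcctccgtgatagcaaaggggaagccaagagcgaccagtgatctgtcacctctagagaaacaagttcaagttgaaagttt
Gclc, chr8:87510226-87510525, plus strand: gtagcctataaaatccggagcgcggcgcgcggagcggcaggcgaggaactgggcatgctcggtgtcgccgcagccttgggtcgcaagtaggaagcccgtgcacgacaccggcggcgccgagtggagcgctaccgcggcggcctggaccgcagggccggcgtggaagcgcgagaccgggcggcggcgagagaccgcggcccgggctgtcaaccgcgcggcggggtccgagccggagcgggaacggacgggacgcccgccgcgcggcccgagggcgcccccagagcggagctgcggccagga
Nqo1, chr19:52220218-52220517, minus strand: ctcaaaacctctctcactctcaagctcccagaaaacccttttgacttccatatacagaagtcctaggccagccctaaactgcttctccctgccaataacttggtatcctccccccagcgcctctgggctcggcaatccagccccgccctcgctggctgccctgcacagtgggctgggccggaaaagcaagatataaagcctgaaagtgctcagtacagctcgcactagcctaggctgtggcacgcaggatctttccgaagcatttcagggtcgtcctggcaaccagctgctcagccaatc
Gclm, chr2:213031885-213032184, plus strand: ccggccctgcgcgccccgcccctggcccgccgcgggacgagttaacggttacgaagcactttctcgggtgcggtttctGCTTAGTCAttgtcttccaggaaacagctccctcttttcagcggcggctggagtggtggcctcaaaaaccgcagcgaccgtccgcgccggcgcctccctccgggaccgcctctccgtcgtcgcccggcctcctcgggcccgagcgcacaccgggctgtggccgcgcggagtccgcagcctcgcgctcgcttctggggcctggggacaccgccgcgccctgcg
Txnrd1, chr7:22755855-22756154, minus strand: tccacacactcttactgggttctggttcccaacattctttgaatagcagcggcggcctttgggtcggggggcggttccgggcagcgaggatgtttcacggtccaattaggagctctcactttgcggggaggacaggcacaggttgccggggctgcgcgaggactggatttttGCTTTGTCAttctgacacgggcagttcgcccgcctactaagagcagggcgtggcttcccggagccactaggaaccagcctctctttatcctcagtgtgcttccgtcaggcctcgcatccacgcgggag
Srxn1, chr3:161064562-161064861, plus strand: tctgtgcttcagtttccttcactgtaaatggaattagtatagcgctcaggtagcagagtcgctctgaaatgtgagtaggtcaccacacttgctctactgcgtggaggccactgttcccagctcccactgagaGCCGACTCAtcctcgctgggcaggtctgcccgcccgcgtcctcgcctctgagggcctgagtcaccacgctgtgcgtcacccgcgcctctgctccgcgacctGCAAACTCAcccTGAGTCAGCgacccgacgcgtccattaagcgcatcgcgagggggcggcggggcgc

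The capitals in Gclm, GCTTAGTCA, start 172 bases before the start site, and those in the downstream of the 2 Txnrd1 windows, GCTTTGTCA, 78 bases before it. Both read on the opposite strand. A match of these letters is not a measured binding site, and elements farther from the start lie outside these windows.

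Slc7a11 had the largest difference of the 10 genes and was the only one of them with every HIP library above every WT library. Its level was 3.76, 5.10 and 7.90 CPM in WT against 23.6, 26.6 and 10.4 CPM in HIP. HIP3 lay close to WT4, while HIP30 and HIP2 lay well above both. These levels rest on 63, 83 and 130 reads in WT and 389, 435 and 169 reads in HIP. The group means were 5.59 ± 2.12 CPM in WT and 20.2 ± 8.64 CPM in HIP (SD, n = 3), a 3.61-fold ratio and a log2 difference of 1.78 (standard error, SE, 0.47). Of the 12102 genes tested, 263 had a larger positive difference. With 1 library left out in turn the difference stayed between 1.53 and 2.20 on the log2 scale. Split by title number, HIP30 exceeded WT26 by 2.62, and HIP2 and HIP3 together exceeded WT1 and WT4 by 1.37.

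**Figure D1:**
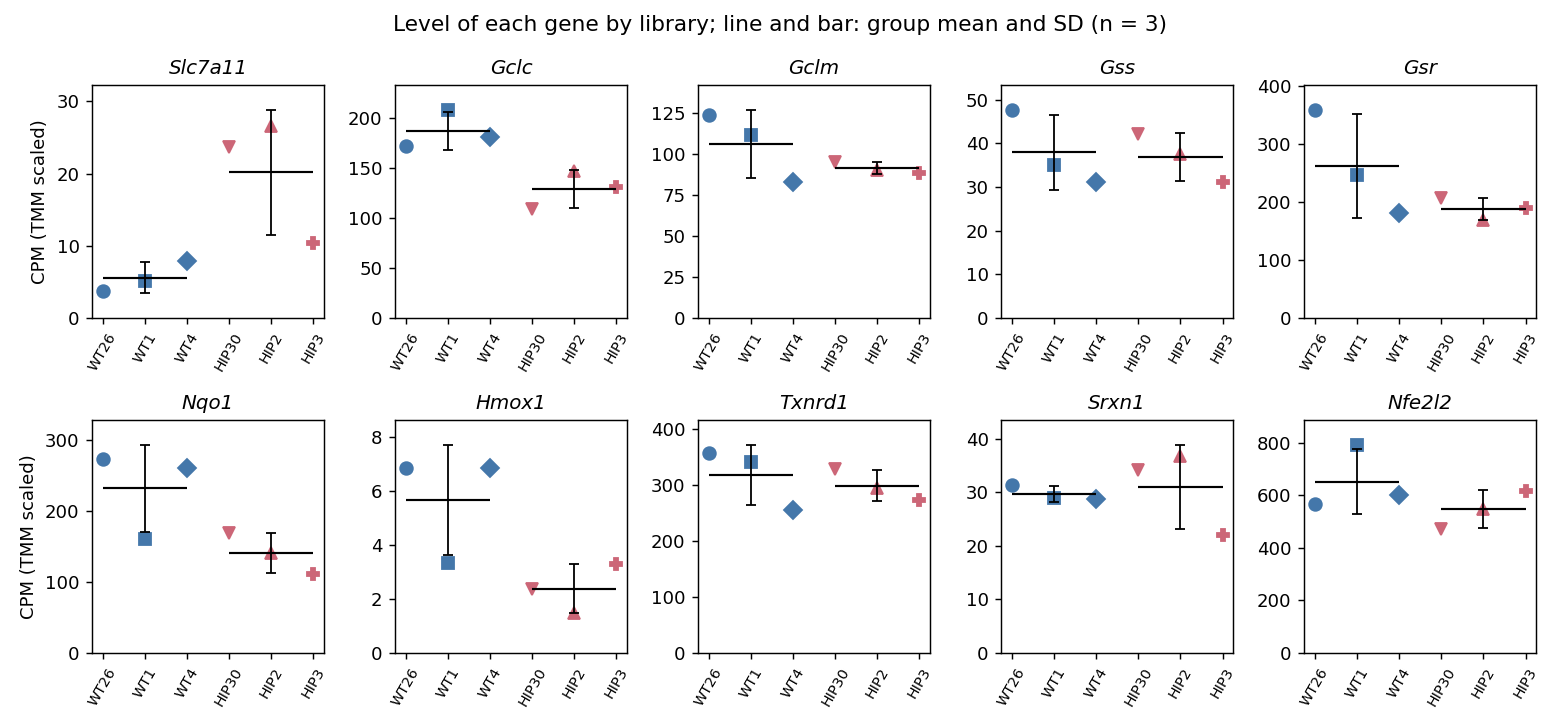
Level of each of the 10 genes in CPM after TMM scaling (vertical axis, from 0) in the 3 WT libraries (blue) and the 3 HIP libraries (red), with the mean as a line and the SD as a bar (n = 3). Slc7a11 runs from 3.76 to 7.90 CPM in WT and from 10.4 to 26.6 CPM in HIP, while the other genes lie closer together or on the lower side in HIP.

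The partner chain overlapped between the groups. Slc3a2, the heavy chain that carries SLC7A11 and several other transporters to the membrane, stood at 67.4, 68.7 and 62.6 CPM in WT and 74.0, 68.5 and 71.0 CPM in HIP, a log2 difference of 0.10 (SE 0.16) (limma, adjusted p = 0.913). Within each library the log2 ratio of Slc7a11 to Slc3a2 was -4.12, -3.72 and -2.97 in WT and -1.64, -1.36 and -2.76 in HIP. The groups did not overlap in this ratio, and WT4 and HIP3 were nearest to each other. These log2 values hold a small added count, the pseudocount. Without it library scaling cancels from the ratio, and the groups did not overlap either, with -2.99 in WT4 and -2.78 in HIP3. The ratio was not tested, since Slc7a11 was chosen for its difference.

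Summed markers of myeloid cells were higher, and those of fibroblasts lower, in HIP30 and HIP2, the libraries highest in Slc7a11, than in any WT library. For 19 measured macrophage and myeloid markers, of 20 listed, the summed level was 485, 717 and 958 CPM in WT. In HIP it was 2631, 2618 and 739 CPM. Of the 18 tested markers 17 had a positive difference, where 51.1% of all genes tested did, at a median log2 value of 0.71. The markers share the same libraries, so their signs are not separate evidence, and limma called none. A single gene made most of the sum in HIP30 and HIP2, but not in HIP3. Mpeg1, a pore-forming protein of macrophages, stood at 0, 181 and 185 CPM in WT and 1929, 1945 and 144 CPM in HIP. Without Mpeg1, an omission chosen after seeing its values, the sum was 485, 536 and 774 CPM in WT and 701, 673 and 595 CPM in HIP, and the groups overlapped. Among the 18 tested markers the groups did not overlap in 3, where 9.54% of all genes tested did not overlap. Mmp12, a macrophage elastase, stood at 4.11, 6.39 and 17.3 CPM in WT against 34.8, 34.1 and 23.0 CPM in HIP, and Itgam, an integrin of myeloid cells, at 2.03, 2.83 and 5.05 CPM against 9.67, 6.35 and 10.5 CPM. Ms4a7, a membrane protein of macrophages, stood at 0.298, 0 and 0.547 CPM in WT against 2.13, 0.611 and 0.919 CPM in HIP. Its levels rest on only 5, 0 and 9 reads in WT and 35, 10 and 15 reads in HIP. In all 3 genes every HIP library lay above every WT library. All other tested markers overlapped, among them Csf1r, Lyz2, Aif1, C1qa, C1qb and C1qc, and Cd14 had a negative log2 difference of -0.23. Cd68, a lysosomal protein of macrophages, overlapped at 5.37 to 17.6 CPM in WT and 12.9 to 16.0 CPM in HIP. Marco, a scavenger receptor, had no read outside WT4.

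The summed level of the 12 fibroblast markers was 1586, 2183 and 2422 CPM in WT against 519, 881 and 1902 CPM in HIP. All 12 had a negative difference, where 48.9% of all genes tested did, with a median log2 value of -1.08. These signs, too, come from the same libraries, and limma called none. HIP30 and HIP2 were the lowest libraries and HIP3 lay inside the WT range. The part of myeloid cells, of fibroblasts and of dividing cells in the Slc7a11 difference was not tested.

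**Figure D2:**
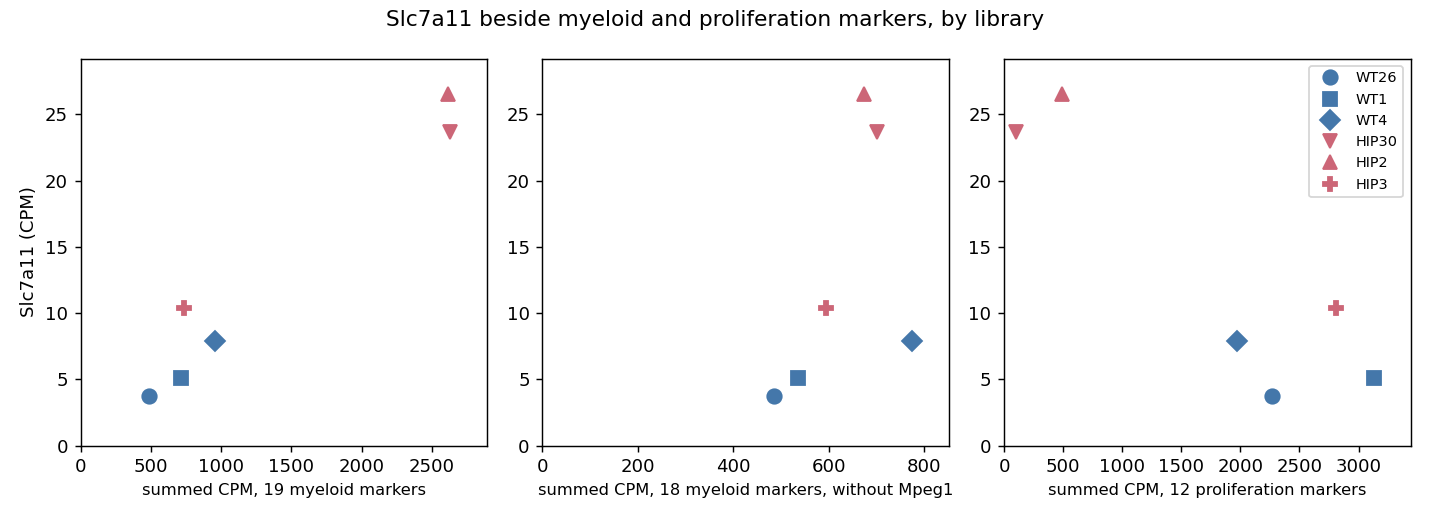
Slc7a11 in CPM (vertical axis) against the summed CPM of 19 myeloid markers, of 18 myeloid markers without Mpeg1 and of 12 proliferation markers (horizontal axes), 1 point per library, WT in blue and HIP in red. HIP30 and HIP2 stand apart with 23.6 and 26.6 CPM of Slc7a11, high Mpeg1 and few proliferation markers, and HIP3 lies among the WT libraries on all 3 horizontal axes.

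Of the 3 enzymes that build glutathione, Gclc was lower in every HIP library and the other two were not. Gclc, the catalytic subunit of glutamate-cysteine ligase, which joins glutamate to cysteine, stood at 171, 208 and 180 CPM in WT and 108, 147 and 131 CPM in HIP. The highest HIP library, HIP2, lay below the lowest WT library, WT26. The means were 186 ± 18.99 CPM in WT and 129 ± 19.3 CPM in HIP (SD, n = 3), and the log2 difference was -0.54 (SE 0.18). Split by title number, it was -0.66 for HIP30 against WT26 and -0.48 for HIP2 and HIP3 against WT1 and WT4.

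Gclm, the modifier subunit that makes the ligase more efficient, stood at 124, 111 and 83.1 CPM in WT and 95.3, 90.1 and 88.2 CPM in HIP. All HIP values lay inside the WT range, and the log2 difference was -0.20 (SE 0.20). The log2 ratio of the catalytic to the modifier subunit was 0.47, 0.898 and 1.117 in WT and 0.18, 0.70 and 0.57 in HIP, with a mean of 0.83 ± 0.33 and 0.48 ± 0.27 (SD, n = 3). The groups overlapped in this ratio, because WT26 lay below HIP2 and HIP3.

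Gss, glutathione synthetase, which adds glycine to finish the tripeptide, stood at 47.6, 35.01 and 31.0 CPM in WT and 42.0, 37.6 and 31.1 CPM in HIP. The 2 groups covered nearly the same range, and the log2 difference of -0.03 (SE 0.24) turned positive when library totals replaced TMM factors. Set against Gclc within the library, the log2 ratio of Slc7a11 to Gclc was -5.47, -5.32 and -4.49 in WT and -2.19, -2.46 and -3.64 in HIP. Its mean was -5.09 ± 0.52 in WT and -2.76 ± 0.77 in HIP (SD, n = 3). The groups could not overlap in this ratio, since Slc7a11 was higher and Gclc lower in every HIP library. Both genes were chosen for these differences, so nothing is read from their ratio.

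**Figure D3:**
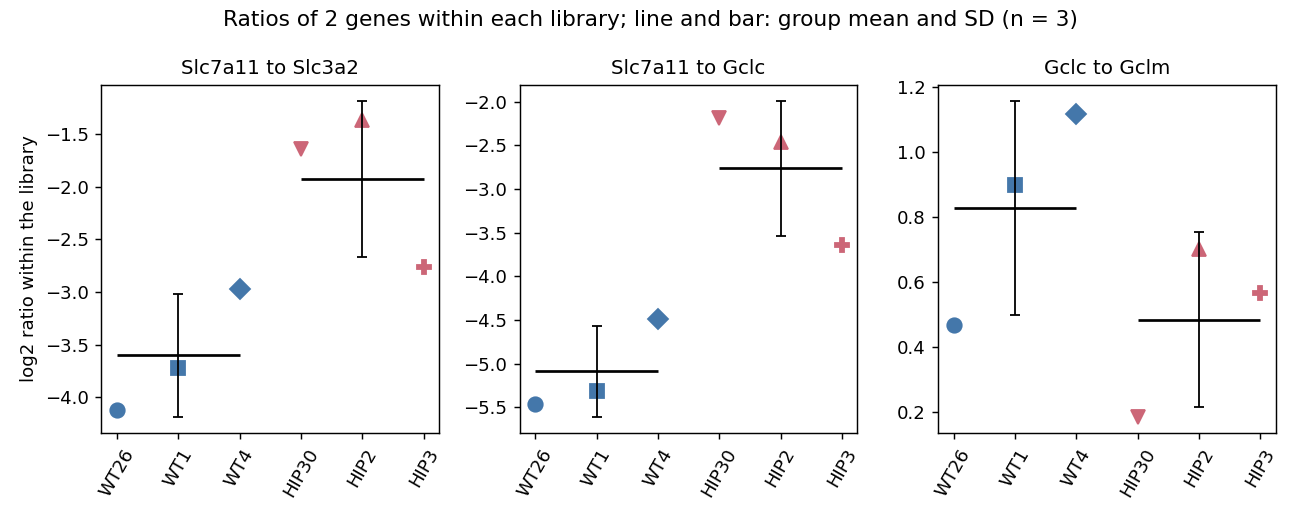
The log2 ratio of 2 genes within each library (vertical axis) for Slc7a11 to Slc3a2, Slc7a11 to Gclc, and Gclc to Gclm, WT in blue and HIP in red, with the group mean as a line and the SD as a bar (n = 3). The first 2 ratios do not overlap between groups, which for Slc7a11 to Gclc follows from the choice of the 2 genes. The Gclc to Gclm ratio of WT26, 0.47, lies inside the HIP range.

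Gsr, Txnrd1 and Srxn1, which return oxidised thiols to their reduced form, overlapped between the groups. Gsr, glutathione reductase, stood at 358, 246 and 180 CPM in WT and 206, 168 and 190 CPM in HIP. WT26 was the highest library and WT4 lay between HIP2 and HIP3, and the log2 difference of -0.43 (SE 0.26) went to -0.17 without WT26. Txnrd1, the cytosolic thioredoxin reductase, stood at 357, 341 and 256 CPM in WT and 328, 295 and 273 CPM in HIP. WT4 was the lowest of the 6 libraries, and the log2 difference was -0.08 (SE 0.19), turning to 0.01 without WT26.

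Srxn1, sulfiredoxin, which repairs over-oxidised peroxiredoxins, stood at 31.3, 28.9 and 28.6 CPM in WT and 34.2, 36.8 and 22.1 CPM in HIP. HIP30 and HIP2 were above all WT libraries and HIP3 was below them, and the log2 difference was 0.03 (SE 0.26). The sign of that difference turned when HIP30 or HIP2 was left out, and single omissions gave values from -0.11 to 0.25. The log2 ratio of Srxn1 to Txnrd1 was -3.40 ± 0.22 in WT and -3.29 ± 0.31 in HIP (SD, n = 3).

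Nqo1 and Hmox1, enzymes of quinone and heme metabolism often read as signs of NRF2 activity, had the 2 most negative differences of the 10 genes. Nqo1, a quinone reductase, stood at 273, 161 and 261 CPM in WT and 169, 141 and 112 CPM in HIP. WT1 lay below HIP30, so the groups overlapped, although WT26 and WT4 lay above every HIP library. The means were 232 ± 61.8 CPM in WT and 140 ± 28.6 CPM in HIP (SD, n = 3), a log2 difference of -0.70 (SE 0.26). Split by title number, the difference was -0.70 for HIP30 against WT26 and -0.71 for the other 4 libraries, where WT1 and WT4 lay far apart. The first value is 1 library against 1. As Nqo1 was chosen from this contrast, nothing is read from the match. The log2 ratio of Nqo1 to Gclc was 0.28 ± 0.57 in WT and 0.12 ± 0.46 in HIP (SD, n = 3).

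Hmox1, heme oxygenase, which breaks heme into biliverdin, iron and carbon monoxide, was the least sequenced of the 10 genes. It had 115, 54 and 113 reads in WT and 39, 24 and 54 reads in HIP, or 6.86, 3.32 and 6.87 CPM and 2.37, 1.47 and 3.31 CPM. Its log2 difference was -1.21 (SE 0.52). WT1 and HIP3 had the same number of reads, and when library totals replaced TMM factors the groups overlapped at 3.10 CPM in WT1 and 3.23 CPM in HIP3. Red cell markers summed to 13.6 to 44.6 CPM in WT and 12.1 to 22.3 CPM in HIP over 8 measured of 11 listed genes, and their part in the Hmox1 values was not tested.

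Nfe2l2, which encodes NRF2, stood at 564, 792 and 598 CPM in WT and 472, 549 and 616 CPM in HIP. HIP3 lay above WT26 and WT4, and the log2 difference was -0.25 (SE 0.21). Keap1, which marks NRF2 for breakdown, stood at 33.9, 41.4 and 36.4 CPM in WT and 33.8, 31.9 and 30.9 CPM in HIP, where WT26 and HIP30 were nearly equal (limma, log2 difference -0.20, adjusted p = 0.841). Bach1, a repressor that occupies the same DNA elements, stood at 20.5, 16.5 and 14.3 CPM in WT and 23.5, 21.4 and 26.7 CPM in HIP (limma, log2 difference 0.49, adjusted p = 0.691). Mafg, a small MAF partner, differed by 0.05 (limma, adjusted p = 0.975), and Sqstm1, an autophagy receptor that binds KEAP1, by 0.10 (limma, adjusted p = 0.963). Transcript levels of Nfe2l2 and Keap1 do not measure NRF2 protein or its place in the cell.

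**Figure D4:**
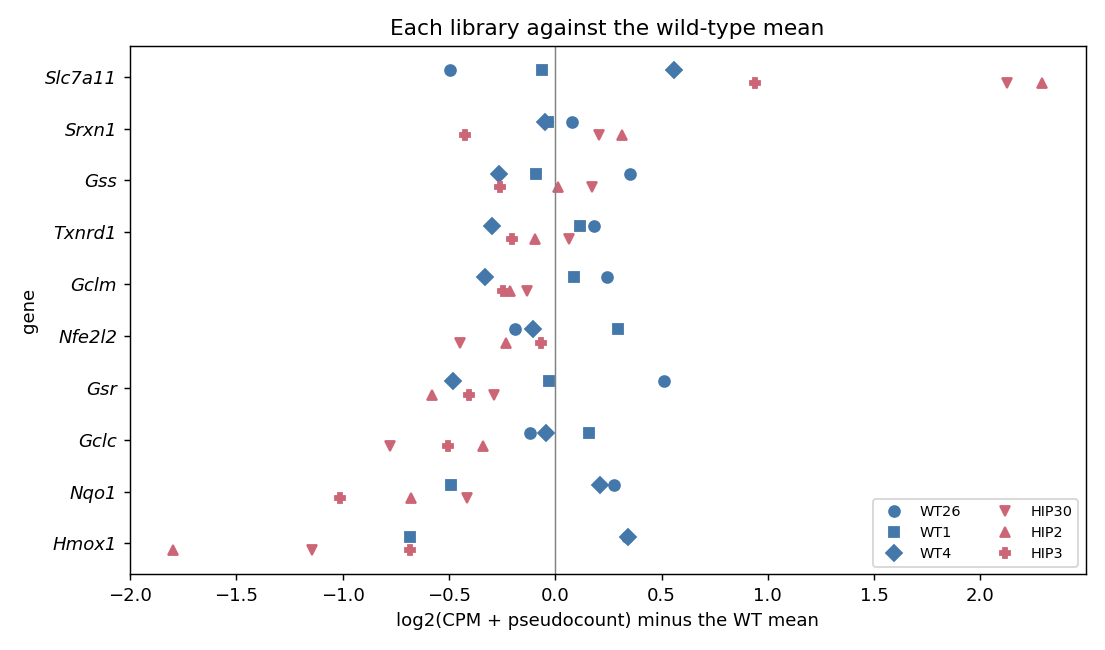
Each library's log2(CPM + pseudocount) minus the WT mean (horizontal axis) for the 10 genes (vertical axis), WT in blue and HIP in red. Slc7a11 stands alone on the right with HIP values of 0.94 to 2.29, and the HIP values of Gclc, Gclm, Gsr, Nqo1, Hmox1 and Nfe2l2 are below 0 in all 3 libraries.

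Counted together, 8 of the 10 genes had a negative and 2 a positive difference, where 48.9% of all genes tested were negative and 51.1% positive. The groups did not overlap in 3 of them, 1 higher (Slc7a11) and 2 lower (Gclc and Hmox1), where 9.54% of all genes tested did not overlap, 5.27% on the higher and 4.27% on the lower side. With library totals 2 of the 10 did not overlap. As the genes were chosen from this contrast, nothing is read from these counts. Their median log2 difference was -0.22, against 0.01 over all genes tested. Relative to the WT mean, the median of the 10 was 0.21, -0.03 and -0.08 in the WT libraries and -0.21, -0.22 and -0.33 in the HIP libraries.

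Across the 6 libraries some of the genes ran together regardless of group. Gclm and Gsr had a Pearson r of 0.94 over the 6 libraries and Gclm and Txnrd1 one of 0.92, and after the group means were taken off these were 0.93 and 0.95. All 3 were highest in WT26 and lowest or next to lowest in WT4. Other pairs ran apart. Nqo1 and Nfe2l2 had an r of -0.12, and of -0.99 after the group means were taken off, and Gclc and Nqo1 had 0.44 and -0.71. These are descriptions over 6 libraries that share their depth and composition.

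Other genes of the pathway had a median close to that of all genes. Of 167 tested pathway genes that are not among the 10, limma called 0 higher and 0 lower, 13 had an unadjusted p under 0.05, 77 had a positive and 90 a negative difference, and the median log2 difference was -0.04. Their groups did not overlap in 23 genes, 12 higher and 11 lower, or 13.8%, where 9.54% of all genes tested did not. Of 28 further tested NRF2 targets 12 were positive and 16 negative, with a median of -0.06. Gsta4, a glutathione transferase for lipid aldehydes, stood at 6.02, 5.90 and 5.11 CPM in WT and 19.7, 13.5 and 8.58 CPM in HIP, a log2 difference of 1.201 (SE 0.39). Osgin1, an NRF2 target of growth control, differed by 0.99 with overlap between groups. Ptgr1, a reductase of reactive alkenals, and Akr1b8, an aldo-keto reductase, differed by -0.83 and -0.62, and both overlapped. None of these 4 genes passed limma's test (adjusted p = 0.691 for each).

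**Figure D5:**
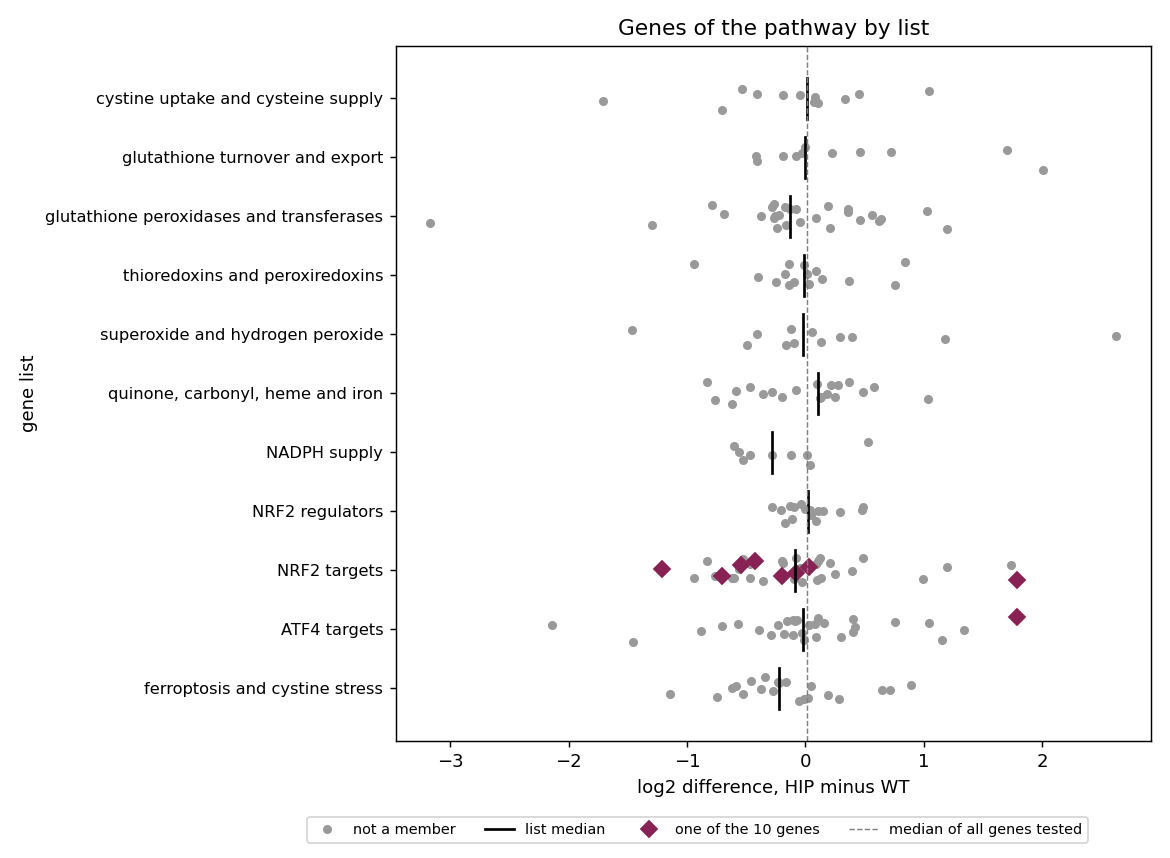
The log2 difference of HIP minus WT (horizontal axis) for each tested gene of 11 lists (vertical axis), with the list median as a black bar and the median of all genes tested as a dashed line. List medians run from -0.28 for NADPH supply to 0.11 for quinone, carbonyl, heme and iron genes, and Slc7a11 lies at 1.78 in both lists that hold it.

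The ATF4 targets other than Slc7a11 lay on both sides of 0. Of 29 tested genes 13 were positive and 16 negative, and the median log2 difference was -0.03. Atf4 itself stood at 370, 232 and 198 CPM in WT and 273, 205 and 243 CPM in HIP (limma, log2 difference -0.11, adjusted p = 0.947). Asns, asparagine synthetase, differed by 0.41 (limma, adjusted p = 0.724). Chac1, which degrades glutathione under stress, stayed at 0 to 0.894 CPM in all libraries, and Trib3, a stress pseudokinase, had reads in WT26 alone, at 0.238 CPM. Sesn2, a stress sensor, stood at 18.9, 18.4 and 29.4 CPM in WT and 39.8, 38.8 and 32.1 CPM in HIP, and Slc1a4, a carrier of small neutral amino acids, at 20.6, 29.4 and 35.7 CPM and 81.5, 66.4 and 35.2 CPM. Both had HIP30 and HIP2 on top and HIP3 near WT4, as Slc7a11 did, and neither passed (limma, adjusted p = 0.691). Vldlr, a lipoprotein receptor, and Psat1, an enzyme of serine synthesis, differed by -0.89 and -1.45.

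Cysteine supply and glutathione turnover showed no common direction. Of 12 tested genes of cystine uptake and cysteine supply 6 were positive and 6 negative, and of 11 genes of glutathione turnover and export 6 and 5. Cdo1, which removes cysteine by oxidation to its sulfinic acid, stood at 7.51, 9.64 and 7.42 CPM in WT and 1.89, 3.97 and 1.84 CPM in HIP, a log2 difference of -1.71 (SE 0.46) (limma, adjusted p = 0.691). Ahcy, of the methionine cycle that feeds cysteine synthesis, differed by -0.41, and Slc3a1, the heavy chain of another cystine carrier, by 0.45. Ggt1, which starts the breakdown of glutathione outside the cell, differed by 2.01 (SE 0.97), from 0.417, 2.15 and 8.09 CPM in WT to 14.2, 10.9 and 4.04 CPM in HIP, and HIP3 lay below WT4. Ggct and Chac2, cytosolic enzymes of glutathione breakdown, differed by 0.46 and -0.42, and Abcc1, an exporter of glutathione conjugates, by -0.19.

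Among enzymes that spend glutathione, 11 of 27 tested peroxidases and transferases were positive and 16 negative, with a median of -0.13. Mgst3, a microsomal transferase, stood at 42.0, 42.9 and 20.9 CPM in WT and 11.7, 11.4 and 18.8 CPM in HIP, a log2 difference of -1.29 (SE 0.37). Gpx3, the secreted peroxidase, differed by -0.69, and Gstt2 by 0.62. Gpx2, the epithelial peroxidase of the gut and another NRF2 target, stood at 1318, 1139 and 1054 CPM in WT and 1547, 1172 and 1338 CPM in HIP (limma, log2 difference 0.21, adjusted p = 0.860). Gpx4, which reduces lipid peroxides, differed by -0.16 (limma, adjusted p = 0.948). Members of transferase families share similar sequence, and reads shared between them could not be separated.

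Thioredoxins and peroxiredoxins, and the enzymes that form NADPH for Gsr and Txnrd1, did not pass either. Txn1, the cytosolic thioredoxin, stood at 933, 493 and 318 CPM in WT and 222, 209 and 446 CPM in HIP, with HIP3 above WT4 (limma, log2 difference -0.94, adjusted p = 0.691). Prdx1 differed by -0.09 (limma, adjusted p = 0.968), Txn2, the mitochondrial thioredoxin, by -0.25 and Sesn1 by 0.84. Of 9 tested genes of NADPH supply 3 were positive and 6 negative, with a median of -0.28. Taldo1, of the pentose phosphate pathway, differed by -0.57 and Pgls by 0.04, while Nnt, the mitochondrial transhydrogenase, differed by 0.53 with no overlap between groups.

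The genes whose 6 library values ran closest to those of Slc7a11, among 9996 other tested genes with a mean of at least 5 CPM, were Trim45, Spata2L, Erlin1, Eml5 and Ncam2, with a Pearson r of 0.98 to 0.99. Ncam2, a neural adhesion molecule, stood at 16.2, 28.7 and 36.8 CPM in WT and 102, 97.9 and 38.2 CPM in HIP. Its levels, too, had HIP3 just above WT4. Those closest to Nqo1 were Prtfdc1, Cyb5d2, Tmem125, Lgals1 and Atg9a, with an r of 0.97 to 0.99. With 6 libraries and this many genes such values are a description of order only.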

How the data were processed

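RNA of laser-cut pancreatic duct glands was sequenced in 6 libraries, 3 per group, and groups were taken from the genotype labels. Kits for small amounts of RNA served for extraction and library making, per the labels' protocols. The submitters' processing notes name the build rn5 and the tools edgeR, HTSeq, limma and STAR, while versions, roles and strandedness are not given in the sources used here.

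Tables of 15679 rows of log2 values, 1 per library, were deposited by the authors. They are on a CPM scale with 0.25 reads added, and a gene without reads stands at -6.04. Whole reads were recovered for 100% of values in each library within 0.1 reads. The 4 rows of repeated symbols were left out. A count test had been planned only for files of whole counts, and these held log2 values. The test used was therefore the planned two-sided limma test (limma 3.58.1, R 4.3.3) with a trend on intensity. It was run on log2 of TMM-scaled CPM with a pseudocount of 0.121 CPM, worth 2 reads, which understates changes of low genes. TMM factors (trims of 30% and 5%) lay between 0.933 and 1.09. A gene was tested if 3 libraries held at least 0.61 CPM (10 reads at median depth) and its reads summed to 15 or more. P-values were adjusted by Benjamini-Hochberg at 0.05 over 12102 genes. The fit was also run on simulated reads with a fixed spread and large changes, as a check of the code only. That run does not show what the fit can detect in these libraries. Reads carry no molecular identifiers, and depth limits Hmox1 most.

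The members and lists were chosen with earlier results of these data known. Named from each list were, per direction, the 2 genes of lowest p with at least 5 CPM, with a set of always named genes, and values are printed for most of them, while some are not reported here. Alternatives covered scaling, pseudocount, filters, limma-voom, the title numbers and each library left out. RefSeq sequences are of GRCr8, and figures used matplotlib 3.10.9.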

Additional observations from a re-analysis of the deposited data

How the results depend on the processing

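Under 15 alternatives the counts of genes called by limma or limma-voom stayed at 0, with a smallest adjusted p of 0.691 in the reported fit and 0.0882 without HIP3. The count at an unadjusted p under 0.05, 792, ran from 233 to 1803 with 1 library left out (338 without WT26, 328 without WT1, 1605 without WT4, 274 without HIP30, 233 without HIP2 and 1803 without HIP3). All 150 recomputed differences of the 10 genes moved by less than the spread within groups. With so few libraries, leaving 1 out can hardly exceed that limit. The filters and the term for the title numbers returned the same differences for these genes. Nothing is therefore read from this count. Slc7a11, Gclc, Gclm, Gsr, Nqo1, Hmox1 and Nfe2l2 kept their sign in each of the 15 alternatives, while Gss, Txnrd1 and Srxn1, all within 0.1 of 0, changed it in at least 1. Gclc ran from -0.64 to -0.42, Nqo1 from -0.96 to -0.56 and Hmox1 from -1.56 to -0.91 with a library left out. No paired analysis was possible because the groups share no replicate number.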

Other observations

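Genes of iron handling and of death by lipid peroxidation, which depend on cystine supply, had 7 positive and 14 negative differences among 21 tested, a median log2 value of -0.22 and no call by limma. Slc11a2, an iron importer, stood at 28.4, 30.3 and 34.2 CPM in WT and 51.4, 43.8 and 50.4 CPM in HIP, and Dhodh, a mitochondrial enzyme of pyrimidine synthesis, differed by 0.89. Cdkn1a, an inhibitor of the cell cycle, stood at 176, 132 and 89.3 CPM in WT and 44.6, 52.0 and 83.0 CPM in HIP, a log2 difference of -1.14 (SE 0.32). Steap3, a reductase of endosomal iron, differed by -0.62. The adjusted p of these 4 genes was 0.691 in limma's test.

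Of 12 tested genes that make or remove superoxide and hydrogen peroxide 6 were positive and 6 negative. Sod3, the secreted superoxide dismutase, stood at 1.31, 24.8 and 59.2 CPM in WT and 124, 113 and 35.5 CPM in HIP, and Cybb, the phagocyte oxidase, at 2.56, 8.72 and 21.6 CPM and 21.2, 28.7 and 9.68 CPM. Duox1, an epithelial oxidase, stood at 44.4, 31.6 and 24.3 CPM in WT and 4.07, 12.8 and 29.96 CPM in HIP. HIP3 lay inside the WT range for all 3 genes, and none passed (limma, adjusted p = 0.691, 0.722 and 0.691). Hmox2, the constitutive heme oxygenase, was named after its values were seen. Of the 167 tested pathway genes outside the 10, it was 1 of 12 with every HIP library above every WT library. Among all genes tested the share was 5.27%. Bach1 was another of these 12, and limma called neither gene.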
